A study of Mus musculus with 27 samples.

Results

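The genes followed here encode the integrin subunits and the laminin chains. They were taken from mouse gene symbols made of Itga or Itgb and a number, or Itgad, Itgae, Itgal, Itgam, Itgav and Itgax, and symbols made of Lama, Lamb or Lamc and a number. Of 40 symbols followed from the RefSeq table, 38 had a probe on the array, out of 37208 genes or transcripts measured, and Itga10 and Itgae had none. The 38 are 25 integrin subunits, 10 laminin chains and 3 proteins that share the name, Itgb1bp1, Itgb1bp2 and Itgb3bp. The cells came from a mouse ESC line (dnFOS ESCs) in which a Flag-tagged dominant-negative FOS peptide, placed at the Hprt locus of A2lox ESCs, is switched on by doxycycline (DOX). The peptide pairs with JUN family proteins and keeps AP-1 off DNA. Every group carries this cassette, in a line grown from picked clones, and DOX was not applied to cells that lack it on the arrays used here. The 7 untreated populations were FLK1+ cells purified from embryoid bodies after 3.75 days, complete blast cultures grown from them for 5 h and for 24 h (d1 BC), and SM, HE1, HE2 and HP cells sorted from later blast cultures. SM are smooth muscle cells. HE1 (CD41-) and HE2 (CD41+) are both KIT+ TIE2+ hemogenic endothelium, and HP are hematopoietic progenitors (KIT+ TIE2- CD41+). The other 6 groups were the same populations given 1 µg/ml DOX, for 5 h in the 5 h blast culture, 1 day in d1 BC and 2 days in SM, HE1, HE2 and HP. Each of the 13 groups had 2 arrays, except untreated SM with 3. No label says that the arrays of a group came from separate differentiations, so p-values measure the spread between arrays, which may be technical.

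Integrins are pairs of an alpha and a beta subunit that span the cell membrane and tie the cytoskeleton to the matrix or to other cells. Laminins are trimers of an alpha, a beta and a gamma chain, and form the scaffold of basement membranes, the thin matrix sheets beneath epithelium and endothelium and around muscle cells. During the endothelial-to-hematopoietic transition, adherent hemogenic endothelium rounds up, leaves its matrix and becomes floating blood cells. Different integrins are used before and after that change. Alpha subunits are usually grouped as receptors for collagen, for laminin and for ligands with an RGD motif such as fibronectin and vitronectin, and as leukocyte integrins that bind other cells.

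Values are log2 signals relative to the 75th percentile of each array, with a single probe per gene, so a level is compared between populations and never between genes. The 75th percentile ranged from 73.2 to 636 signal units between arrays, and 46.8% to 89.6% of probes were well above background, so dim genes were read less well on some arrays than on others. The value of 73.2 was that of untreated HE2 replicate 1, and the untreated HE1 arrays were at 124.5 and 128.5. Hprt, where the cassette sits, was 2.65-fold to 12.3-fold higher with DOX in the 6 populations, with no overlap of arrays. Markers of cell types were compared with the labels. The mean log2 signal of 6 smooth muscle markers was 3.86 to 4.52 on SM arrays and 1.61 to 2.53 on HE1 arrays, while that of 7 endothelial markers was -1.35 to 1.48 on SM arrays and 3.05 to 3.60 on HE1 arrays. The mean of 6 hematopoietic markers lay at -1.05 to -0.80 in HE1, 2.14 to 2.40 in HE2 and 3.23 to 3.36 in HP. The smooth muscle markers were higher in unsorted d1 BC, at 4.66 to 4.72. Untreated SM also held erythroid signal, with 6 markers at 0.75 to 3.47 against 0.85 to 0.88 in HP, and epithelial signal, with 5 markers at 1.3 to 3.8. Of the 35 subunits, 22 were well above background on every array of all 13 groups, 10 on every array of some groups, and 3 of no group. Those 3 were Itgad, Itgb6 and Itgb2l, for which no change is given.

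The letters TGANTCA, in which N is any base, were taken for AP-1, and the core GGAATG or GAATGT, which overlap by 5 letters, for TEAD factors. Both were searched on both strands in RefSeq promoter windows of GRCm38.p6, from 250 bases before to 50 bases after a start. There were 29 windows for 26 of the 40 genes. The AP-1 letters stood in 3 windows (10.3%), against 7.81% of all 32851 windows, and the TEAD letters in 5 (17.2%), against 21.5%. The windows with AP-1 letters belonged to Itgax, Itga9 and Itga3, and those with TEAD letters to Itga1, Itga10, Itgb1, Itgb6 and Lamb3. The matches of Itga9, Itga3 and Lamb3 lay in windows inside the gene, after its RefSeq start. Itga3, Itgb6 and Lamb3 each had another window without these letters. The windows of Itga11, Itga8, Itga4, Itgb5 and Lamb1, which are named below, held neither. Genes without a window, among them Itga6, Itga7, Itgal, Itgb2, Itgb3, Itgb4, Lama1, Lama3, Lama4 and Lamc1, were not searched. A match describes letters and is no site of binding. The lines below show the 250 bases before the start for members whose values follow, and for Itga3 and Itga9 only the letters around the match, which lies after the start. Capitals mark TGANTCA in Itgax, Itga3 and Itga9, and the TEAD core, on either strand, in Itga1 and Lamb3.
Itgax (chr7:128129300-128129549, plus strand): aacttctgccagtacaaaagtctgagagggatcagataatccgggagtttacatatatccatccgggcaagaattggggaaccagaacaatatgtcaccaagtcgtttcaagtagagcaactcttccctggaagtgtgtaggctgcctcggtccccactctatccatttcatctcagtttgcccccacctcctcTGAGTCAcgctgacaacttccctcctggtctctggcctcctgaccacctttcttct
Itga1 (chr13:115101965-115102214, minus strand): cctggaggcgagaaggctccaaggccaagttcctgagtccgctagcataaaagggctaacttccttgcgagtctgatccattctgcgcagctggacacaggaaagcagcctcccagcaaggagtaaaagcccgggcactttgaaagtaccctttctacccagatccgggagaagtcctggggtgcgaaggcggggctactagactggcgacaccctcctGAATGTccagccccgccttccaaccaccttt
Lamb3 (chr1:193301993-193302242, plus strand): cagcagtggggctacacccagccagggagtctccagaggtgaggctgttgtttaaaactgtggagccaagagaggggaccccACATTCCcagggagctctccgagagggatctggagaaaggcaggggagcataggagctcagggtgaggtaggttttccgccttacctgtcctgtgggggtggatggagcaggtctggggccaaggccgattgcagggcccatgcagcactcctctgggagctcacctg
Itga3 (chr11:95069170-95069196, minus strand): ggctggtgccTGAATCActggcttgct
Itga9 (chr9:118711720-118711741, plus strand): cagactggtcTGACTCAaggag

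Across the 7 untreated populations, 18 of the 32 subunits tested differed (limma F-test, Benjamini-Hochberg adjusted p under 0.05), that is 14 of 22 integrin subunits and 4 of 10 laminin chains. Over all genes tested, 19.2% passed. Itga2b is among the 14, but it encodes CD41, by which HE1, HE2 and HP were sorted, so its difference is no finding. Itgb3 encodes the partner of CD41, and the part of the sorting in its difference was not tested. The smallest adjusted p-values were those of Itgb3 (1e-06), Itga4 (2e-06), Itgb5 (3e-06) and Lamb3 (4e-06). The others were Itga1, Itga2b, Itga7, Itga8, Itga9, Itga11, Itgal, Itgav, Itgax, Itgb2, Itgb7, Lama1, Lamb1 and Lamc1. Of these, Itgav, Itgax and Lamc1 did not pass after normexp background correction, with no filter on dim probes, with the replicate number as a block, or with some single arrays left out. Itgal did not pass after normexp either. Itgb2 did not pass with the slide as a fixed or random block, and Itgb2 and Itgb7 also depended on single arrays. With only genes well above background in all groups, Itga8, Itga11, Itgal, Itgax, Lamb3 and Lamc1 did not pass or were not tested. Itgb1, the beta subunit shared by the largest family of integrins, did not pass and had group means of 2.77 to 3.97 in the 7 populations. Lama3 did not pass either, with means of -1.56 to -0.89. The map of group means shows the turn at HE2, where Itgb3 was high and Itgb5, Itga8 and Lama1 were low.

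**Figure D1:**
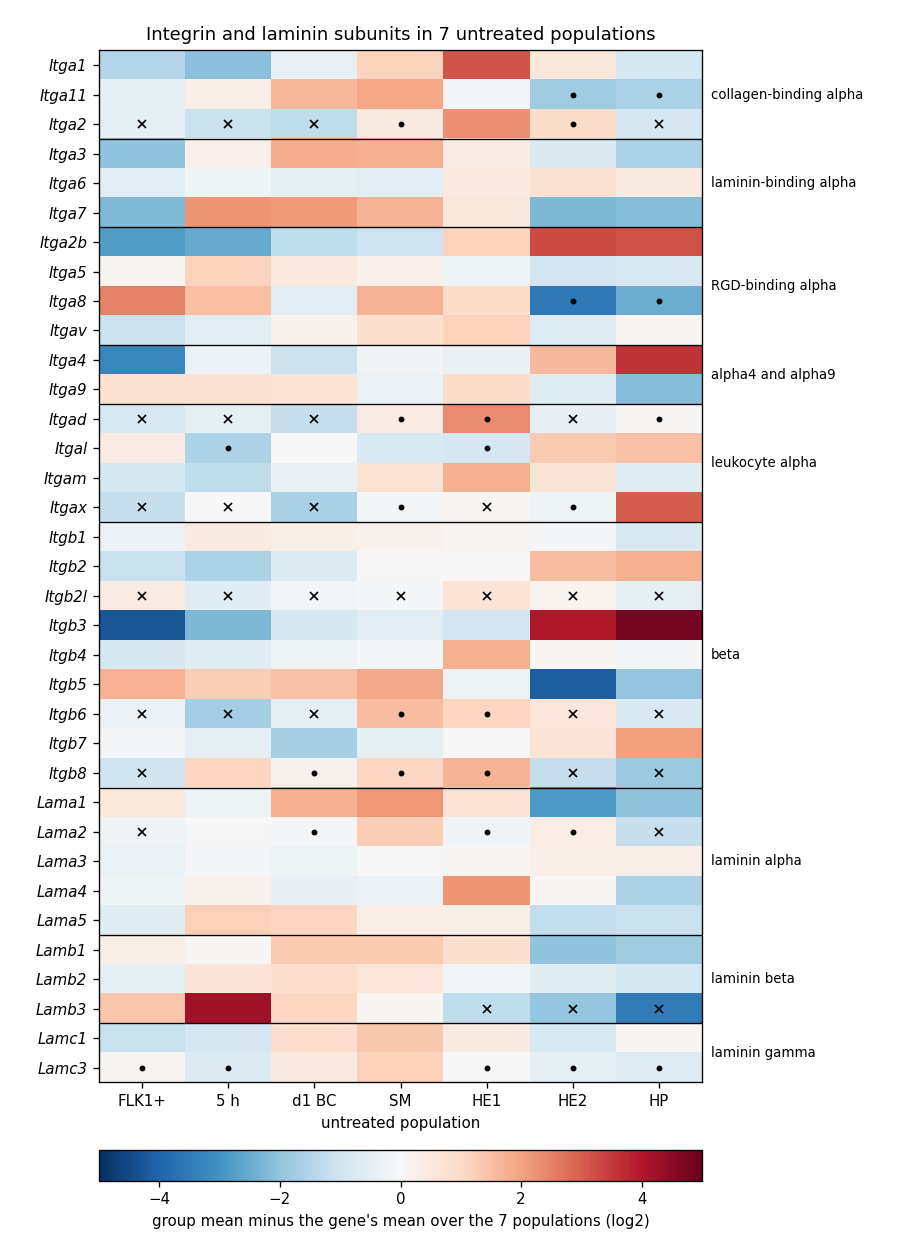
Colour gives the mean log2 signal of each subunit in each untreated population minus the mean of that gene over the 7 populations, with genes ordered by class. A dot marks a population where only some arrays were well above background and a cross a population where none was; Itgb3 runs from low in FLK1+ cells to high in HP, and Lamb3 is highest at 5 h.

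The first 5 h of blast culture, compared with FLK1+ cells, showed 3 subunits that rose and none that fell, of 29 tested. Of all genes 2.93% were called higher and 0.353% lower. A gene is called at an adjusted p under 0.05 and a change of at least 2-fold. The median change over the subunits was 0.28 on the log2 scale, against -0.18 over all genes. The risers were Lamb3, a laminin chain of epithelial basement membranes, Itga7, a laminin receptor of muscle cells, and Itga4, a receptor for fibronectin and VCAM1. The mean of 5 epithelial markers was 1.79 to 2.48 in FLK1+ cells and 3.49 to 4.36 after 5 h, and that of the 6 smooth muscle markers 1.21 to 1.69 and 3.43 to 3.94. Their part in these rises was not tested. In bulk RNA of this kind, fewer cells of a type and less RNA per cell cannot be told apart.

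Itga7 stood at -1.62 and -1.83 and then at 2.72 and 2.63, a 21.1-fold rise (4.40, SE 0.78, limma adjusted p = 0.00387). The groups lay far apart, and the arrays within each were close. Without replicate 1 of the 5 h culture its limma adjusted p was 0.084. Itga4 rose from -3.99 and -3.25 to -0.70 and -0.61 (2.97, SE 0.54, limma adjusted p = 0.00487). This call was lost without FLK1+ replicate 1 (limma adjusted p = 0.0754) or 5 h replicate 1 (0.0875), with normexp background correction (1.55, adjusted p = 0.107) and with median scaling (0.0534). The mean of its 2 probes changed by 0.72 (limma adjusted p = 0.589), but the second probe was well above background on 9 of 27 arrays. Lamb3 was at -2.89 and -0.22 in FLK1+ cells, a wide gap, and at 1.38 and 1.15 after 5 h (2.82, SE 0.70, limma adjusted p = 0.0303). This call was lost without FLK1+ replicate 1 (limma adjusted p = 0.547), 5 h replicate 1 (0.294) or 5 h replicate 2 (0.0717), and with the slide as a fixed block (0.146), quantile normalization (0.0622), no filter on dim probes (0.0613) or only the groups compared (0.0938). On the slide that held both populations the differences were 4.36 for Itga7, 3.01 for Itga4 and 2.70 for Lamb3. With 5 h replicate 1 left out, which was alone on its slide, none of these subunits was called, and without FLK1+ replicate 1 only Itga7 was.

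Between the 5 h and the 24 h blast culture only Lamb3 was called, and it fell, 1 of 30 tested (1.04% of all genes were called lower and 0.674% higher). Its arrays went from 1.38 and 1.15 to -1.85 and -1.94. The groups did not overlap, with a change of -3.16 (SE 0.70, limma adjusted p = 0.0252) overall and -3.09 on the slide both shared. The 5 epithelial markers were at 2.57 to 3.37 in d1 BC, below their 5 h values, and their part was not tested. Leaving out any of the 4 arrays ended the call, with changes of -3.28 to -3.04 and limma adjusted p of 0.067 to 0.258, and so did the slide as a fixed block (-3.08, adjusted p = 0.194). Between d1 BC and SM no subunit of 29 tested was called by limma (0.264% of all genes either way), and 2 had an unadjusted p under 0.05 (6.38%).

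**Figure D2:**
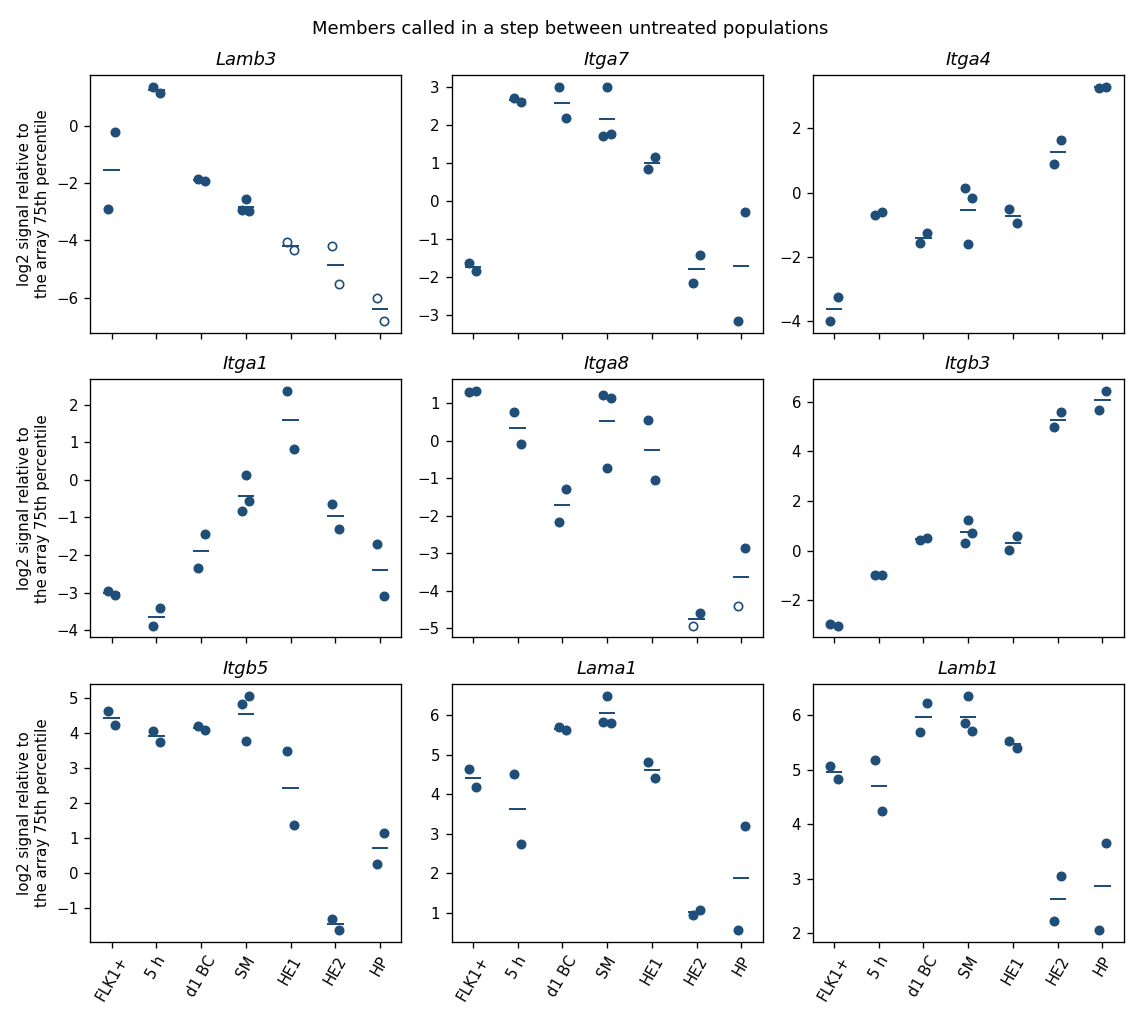
Log2 signal of each array relative to its 75th percentile, for the 9 subunits called in a step between untreated populations. Points are arrays, bars are group means, and open points were not well above background; Itgb3 lies between 4.97 and 6.43 in HE2 and HP and at 1.25 or below elsewhere.

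From d1 BC to HE1, Itga1 rose and none fell, 1 of 29 tested (2.04% of all genes were called higher and 1.55% lower). Itga1, a collagen receptor, was at -2.35 and -1.45 in d1 BC and at 2.36 and 0.82 in HE1, an 11.2-fold rise (3.49, SE 0.66, limma adjusted p = 0.00607). The arrays did not overlap, and those of HE1 lay further apart than those of d1 BC. No slide held both populations. With the slide as a fixed block Itga1 was not called (2.47, limma adjusted p = 0.0861). The call was also lost without HE1 replicate 1 (limma adjusted p = 0.0849) or d1 BC replicate 1 (0.09), and with only the groups compared (0.0664). The split of 1 higher and 0 lower became 1 and 1 after normexp, quantile or median scaling, and 2 and 2 in the values the authors processed.

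Itga2, a second collagen receptor, was well above background on both HE1 arrays and on no d1 BC array, at least 3.18-fold higher in HE1, which did not pass (limma adjusted p = 0.0794). Lamb3 was well above background on both d1 BC arrays and on neither HE1 array, at least 3.65-fold lower in HE1, and did not pass (limma adjusted p = 0.0773). The epithelial markers were at 2.57 to 3.37 in d1 BC and -0.37 to 0.85 in HE1, and the 7 endothelial markers at -0.74 to -0.62 and 3.05 to 3.60. Their part was not tested. Between SM and HE1, both sorted from the later cultures, no subunit of 30 tested was called by limma (0.509% of all genes lower in HE1 and 0.299% higher), and 8 had an unadjusted p under 0.05 (9.15%). Quantile normalization gave 1 higher, normexp 1 lower, and the values the authors processed 2 higher and 1 lower.

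More subunits were called between HE1 and HE2, the step at which cells gain CD41, than in the other steps, although not with array weights, with only the groups compared or without HE1 replicate 1 or HE2 replicate 1. Of 27 subunits tested 1 rose and 5 fell, while 0.58% of all genes were called higher and 2.09% lower. The median change over the subunits was -1.23, against 0.04 over all genes. The arrays of 17 subunits were all lower in HE2 and those of 5 all higher, against 16.1% and 16% of all genes, with signals below background taken at their values. The first HE2 array was not well above background for Itga2 and Itga11, which are among the 17, and Itga2b, among the 5, encodes the CD41 used to sort these cells. Of 7 laminin chains tested, 6 had all HE2 arrays below all HE1 arrays, 2 were called, and the median was -1.52. The 20 integrin subunits had a median of -1.13, with 1 called higher and 3 lower. Over the 38 genes the median was -0.80 to -1.27 under the other scalings, so the direction held. The split of the calls did not: 3 rose and 7 fell with quantile normalization, 1 and 2 with median scaling, 3 and 8 in the authors' processed values, and 1 and 3 after normexp background correction. HE1 and HE2 were hybridised together on 2 slides, and with the slide as a fixed block 3 rose and 10 fell.

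Itgb3, which pairs with Itga2b in the fibrinogen receptor of platelets and with Itgav in the vitronectin receptor, was at 0.03 and 0.59 in HE1 and at 4.97 and 5.59 in HE2. That is a 31.4-fold rise (4.97, SE 0.81, limma adjusted p = 0.00217), and 4.94 and 5.00 within the 2 slides. HE1 and HE2 were sorted by CD41, the product of Itga2b. The part of this sorting in the rise of its partner Itgb3 was not tested. Itga8, an RGD-binding partner of Itgb1, went from 0.55 and -1.03 to -4.93 and -4.58, with only the second HE2 array well above background (-4.52, SE 0.79, limma adjusted p = 0.00354). The lowest signal well above background on the first was -2.78, so the size of this fall is uncertain, and after normexp background correction it was -1.99 and not called (limma adjusted p = 0.104). The call was also lost with only the groups compared (limma adjusted p = 0.0746). With only genes well above background in both groups, Itga8 was not tested. Itgb5, a vitronectin receptor subunit, went from 3.49 and 1.36 to -1.31 and -1.63, a 14.8-fold fall (-3.89, SE 0.63, limma adjusted p = 0.00208). In these genes no HE1 array overlapped with an HE2 array, although the HE1 arrays of Itga8 and Itgb5 differed from each other by more than those of HE2.

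Lama1 and Lamb1 belong with Lamc1 to the laminin trimer of the early embryo. Lama1 went from 4.81 and 4.40 to 0.94 and 1.07, a 12.1-fold fall (-3.60, SE 0.79, limma adjusted p = 0.0156). The Lama1 call was lost with median scaling (limma adjusted p = 0.0566), array weights (0.0779) and only the groups compared (0.0813). Lamb1 went from 5.54 and 5.40 to 2.22 and 3.06 (-2.83, SE 0.65, limma adjusted p = 0.0205), a call lost with median scaling, array weights, only the groups compared and without HE1 replicate 2 or HE2 replicate 1. In both genes the arrays of HE1 and HE2 were far apart. Lamc1, the gamma chain of many laminins, was at 4.22 and 4.94 in HE1 and 2.88 and 3.82 in HE2, and was not called. Itga1 returned from 2.36 and 0.82 to -0.65 and -1.30 (-2.56, SE 0.66, limma adjusted p = 0.0451). This call was lost with normexp background correction, median scaling, array weights, the replicate number as a block, only the groups compared, no filter on dim probes, only genes well above background in both groups, and without either HE2 array.

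These calls depended on HE1 replicate 1. Without it none of the 6 was called, with limma adjusted p of 0.0567 for Itgb3, 0.0801 for Itgb5, 0.101 for Itga8 and 0.166 for Lama1. With any array left out the changes ran from 4.66 to 5.28 for Itgb3, -4.96 to -2.82 for Itgb5, -5.31 to -3.72 for Itga8 and -3.80 to -3.40 for Lama1. Without HE2 replicate 1 the calls were Itgb3, Itgb5 and Itgam. The Lama1 call was lost whichever array was left out. In the limma fit of the HE1 and HE2 arrays alone no subunit was called. Markers of other cell types moved at the same step. The mean of the 6 megakaryocyte markers was -2.10 to -1.93 in HE1 and 0.31 to 0.59 in HE2, and that of the 6 smooth muscle markers 1.61 to 2.53 and 0.31 to 0.38. The mean of 6 fibroblast markers was 0.58 to 1.97 in HE1 and -1.37 to -1.26 in HE2, and that of 5 epithelial markers -0.37 to 0.85 and -3.13 to -2.33, with Cdh1 and Epcam well above background on no HE2 array. Their part in these changes was not tested.

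Matrix proteins that bind laminins and integrins showed calls at the same step. The calls in this paragraph were not recomputed with other settings or with an array left out. Of 12 such genes tested, 3 fell and none rose, with a median of -1.63, where 2.09% of all genes fell. These were Tnc (-5.77, limma adjusted p = 0.000416), a matrix glycoprotein, and Nid1 (-2.90, limma adjusted p = 0.0231) and Nid2 (-2.99, limma adjusted p = 0.032), the nidogens that link laminin to collagen. Of 18 tested adaptors and activators that work on the inner side of integrins, 2 fell and none rose, Parva (-2.69, limma adjusted p = 0.0309) and Bcar1 (-2.27, limma adjusted p = 0.0438). Of 8 tested ligands of leukocyte integrins on other cells, Jam2 fell (-2.47, limma adjusted p = 0.0278). In the steps before, single genes of these lists were called. Vcam1, the partner of Itga4 on other cells (4.62, limma adjusted p = 0.0446), and the adaptor Lims2 (2.43, limma adjusted p = 0.0252) were called higher in d1 BC than at 5 h, as were 0.674% of all genes. Icam2 (5.94, limma adjusted p = 0.0339) and Apbb1ip (3.37, limma adjusted p = 0.0028), a talin recruiter, were called higher in HE1 than in d1 BC (2.04% of all genes), and Madcam1, a ligand of Itga4 with Itgb7, was called higher in HE1 than in SM (3.45, limma adjusted p = 0.0414, 0.299% of all genes).

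Between HE2 and HP no subunit of 25 tested was called by limma (0.0158% of all genes either way), and 6 had an unadjusted p under 0.05 (6.63%). With quantile normalization, and in the values the authors processed, 1 was called, Itgax, which rose. Itgax (CD11c) was well above background on both HP arrays, at -1.86 and -2.22, and on 1 of 2 HE2 arrays, at -4.99 and -5.66. Itga4 stood at 3.25 and 3.30 in HP, above its 0.88 and 1.64 in HE2.

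Itga2b encodes CD41, which was used to sort HE1, HE2 and HP, so its order among them is given as a description. It was at 1.33 and 0.87 in HE1, 2.64 and 3.77 in HE2 and 3.25 and 3.01 in HP, and between -3.05 and -0.33 on every array of FLK1+, 5 h, d1 BC and SM. HE2 and HP overlapped. A set of 14 pairs of subunits, chosen from the known partners, differed widely in how their 13 group means, read on the same arrays, went together. Pearson's r was 0.88 for Itga2b with Itgb3, 0.87 for Itga5 with Itgb1, 0.80 for Itga4 with Itgb7, 0.79 for Itga11 with Itgb1 and 0.76 for Itgal with Itgb2. It was 0.47 for both Itgam and Itgax with Itgb2, although Itgax was well above background on every array of only 1 group, 0.59 for Itga6 with Itgb4 and 0.60 for Lamb1 with Lamc1. It lay between 0.01 and 0.17 for Itgav with Itgb3 or Itgb5 and for Lama4 or Lama5 with Lamc1, and was -0.62 for Lama3 with Lamb3, where Lamb3 was well above background on every array of 7 of the 13 groups.

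With DOX, no integrin subunit or laminin chain was called in any of the 6 populations, by limma over all genes, and neither was any of the 3 binding proteins. The background of such calls was low. The share of all genes called in either direction was 0.0398% in HP, 0.021% in SM and 0.00421% at 5 h, and 0% in d1 BC and both HE populations. At an unadjusted p under 0.05 there were 3 subunits of 25 tested in HE2, 2 of 29 in d1 BC, 1 of 25 in HP, 1 of 27 in HE1, 1 of 29 in SM, and 0 of 29 at 5 h. The shares of all genes were 9.95%, 1.55%, 3.78%, 1.27%, 2.76% and 5.28% in the same order. The median over the subunits lay below that over all genes in each population, by values of -0.25 against -0.04 at 5 h, -0.26 against 0.13 in d1 BC, -0.16 against 0.09 in SM, -0.17 against 0.09 in HE1, -0.16 against 0.17 in HE2 and -0.31 against 0.25 in HP. Under quantile normalization, and in the authors' values, the median over the 38 genes in HE2 was above that of all genes (0.15 against 0.12, and 0.12 against 0.09).

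Some subunits had no overlap between arrays with and without DOX. With DOX, 7 of 29 were lower on every array at 5 h (16.4% of all genes) and 1 was higher (18.5%). In d1 BC these were 7 lower (9.78%) and 3 higher (18.4%), in SM 4 lower (6.03%) and 2 higher (4.47%), and in HE1 2 lower (8.33%) and 3 higher (8.73%). In HE2 2 were lower (14.3%) and 8 higher (20.4%), and in HP 7 were lower (12.5%) and 5 higher (25.6%). These counts, and those of all genes, take signals below background at their values, as for Itga8 in HE2, where the overlap was not measured. The plot of DOX effects shows the spread of the subunits around the medians.

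**Figure D3:**
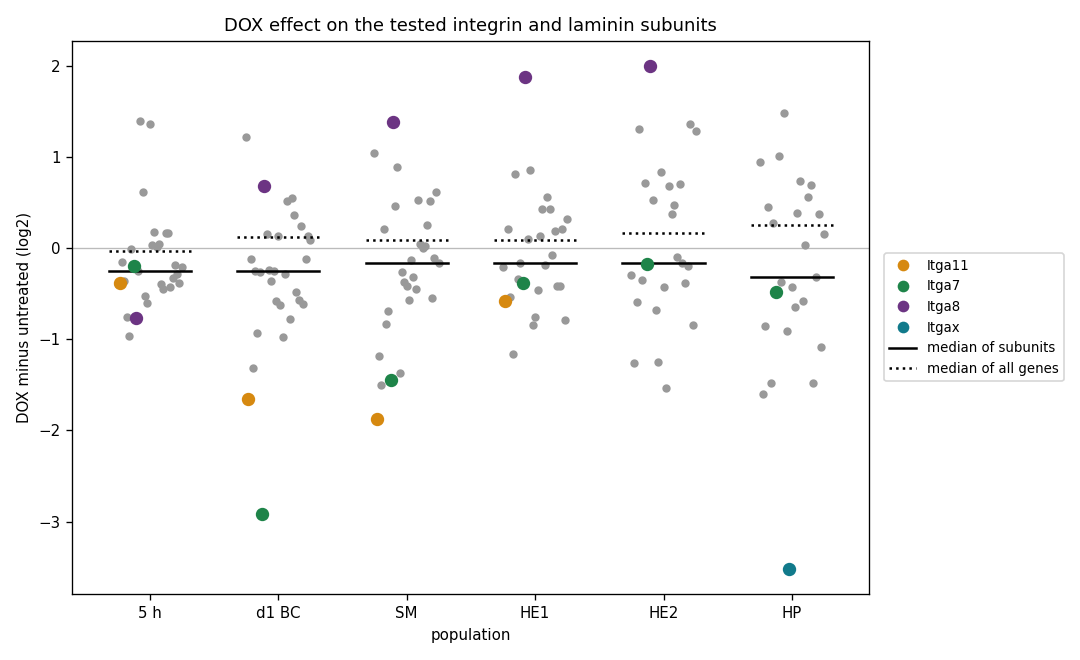
DOX minus untreated, as a log2 difference of group means, for each subunit tested in the 6 populations. Solid bars are the medians of the subunits and dotted bars those of all genes tested; Itga11 lies below 0 wherever it was tested, and Itga8 above 0 from d1 BC to HE2.

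Averaged over the 6 populations, none of 32 subunits had a DOX effect that was called by limma (0.209% of all genes), and 5 had an unadjusted p under 0.05, as did 8.36% of all genes. Of these, Itga7 (-0.93, SE 0.31, limma adjusted p = 0.383), Itga11 and Itga5 (-0.82, SE 0.33, limma adjusted p = 0.533) had negative differences. That of Itga8 was positive (0.82, SE 0.32, limma adjusted p = 0.503), but includes HE2 and HP, where some arrays were not well above background. The last was Itgb8, a receptor subunit that activates TGF-beta, which was well above background on 8 of 27 arrays, so no size is given.

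**Figure D4:**
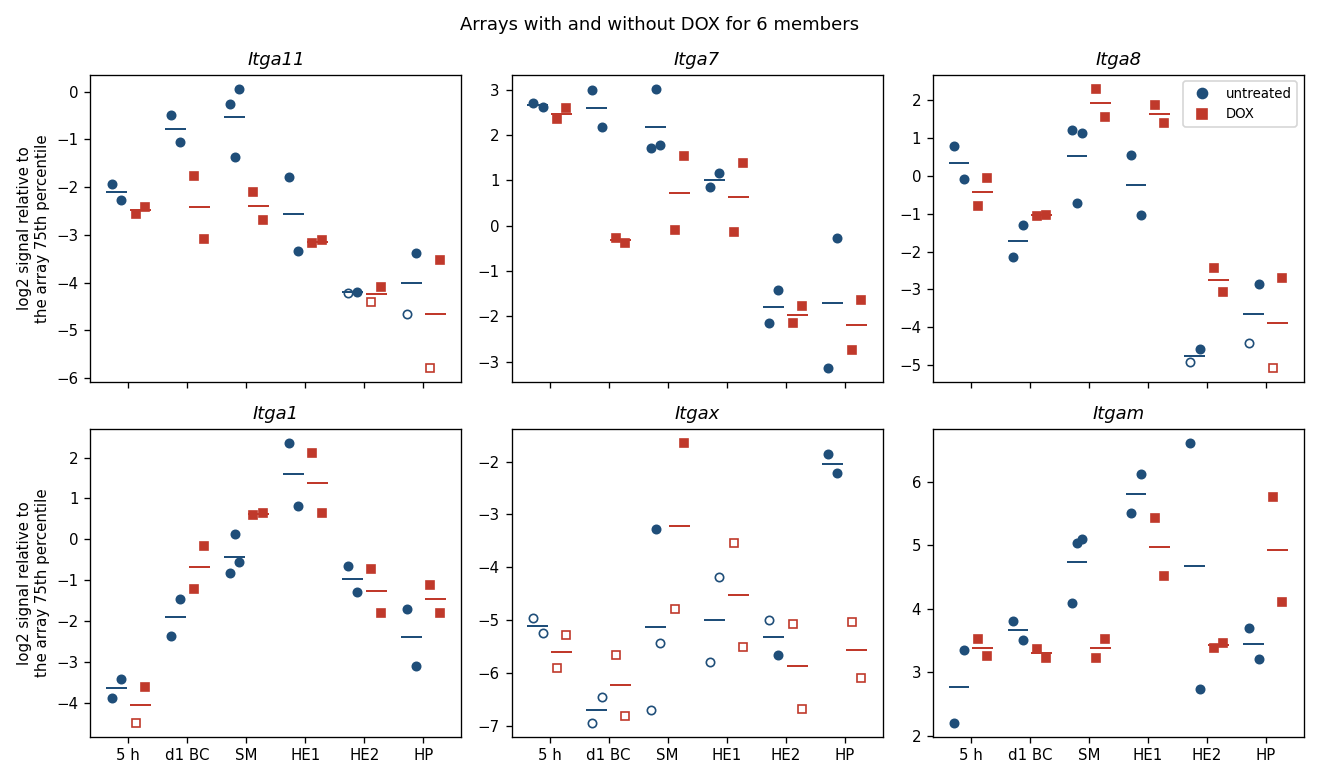
Log2 signal of each array relative to its 75th percentile, untreated (circles) and with DOX (squares), for 6 members in the 6 populations. Bars are group means and open points were not well above background; Itga11 is lower with DOX in d1 BC and SM, and Itgax in HP.

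Itga11, a collagen receptor of mesenchymal cells, was lower with DOX in d1 BC, at -0.50 and -1.05 without and -1.77 and -3.08 with it (-1.65, SE 0.70, limma adjusted p = 1), which ran from -2.31 to -0.99 with an array left out. In SM it was at -0.26, -1.37 and 0.06 without and -2.11 and -2.70 with DOX (-1.88, SE 0.64, limma adjusted p = 0.996). In both the arrays did not overlap. Its mean effect was -0.87 (SE 0.28, limma adjusted p = 0.357), which includes HE2 and HP, where 1 of 2 arrays of each group was well above background. At 5 h it was at -2.57 and -2.41 with DOX against -1.93 and -2.27, also without overlap. In HE1 a difference of -0.58 turned to 0.19 without replicate 1 of the untreated cells, and in HE2 and HP it was not tested. The 6 fibroblast markers were at 1.36 to 1.37 in d1 BC against -0.15 to 0.84 with DOX, and at 2.19 to 2.45 in SM against 1.84 to 1.87. Their part was not tested.

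Itga7, which rose over the first 5 h, was at 3.00 and 2.18 in untreated d1 BC and at -0.28 and -0.37 with DOX. This 7.54-fold difference was the largest of the subunits tested in d1 BC, without overlap of arrays, and had an unadjusted limma p of 0.00141, but an adjusted p of 1 (-2.92, SE 0.78). Within the 2 slides it was -3.28 and -2.55. At 5 h, by contrast, Itga7 was at 2.72 and 2.63 without and 2.36 and 2.59 with DOX. The difference between both effects was -2.72 (SE 1.1, limma adjusted p = 1). In SM it was at 1.72, 3.02 and 1.78 against -0.09 and 1.54 (-1.45, SE 0.71, limma adjusted p = 0.996), and -0.64 once SM DOX replicate 1 was left out.

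Itga8 went the other way. With DOX it was at 2.31 and 1.55 in SM against 1.22, -0.73 and 1.13 without (1.39, SE 0.72, limma adjusted p = 0.996), and at 1.88 and 1.40 in HE1 against 0.55 and -1.03 (1.88, SE 0.79, limma adjusted p = 1). In HE2 it was at -2.44 and -3.07 with DOX (limma adjusted p = 0.493). There 1 of 2 untreated arrays was well above background, at -4.58, and the lowest signal that counted so on the other array was -2.78, above the second DOX array, so neither the size nor the overlap was measured. In d1 BC it was at -1.05 and -1.02 against -2.15 and -1.28 (0.68, SE 0.79, limma adjusted p = 1). The DOX arrays were above all untreated ones in SM, HE1 and d1 BC. At 5 h the mean was lower with DOX, at -0.79 and -0.06 against 0.78 and -0.09, and the arrays overlapped. The mean was also lower with DOX in HP, where 1 of 2 arrays of each group was well above background. With an array left out the difference ran from 0.75 to 1.76 in SM, 1.09 to 2.67 in HE1 and 0.25 to 1.11 in d1 BC. Itga1 was also higher with DOX in d1 BC, at -1.21 and -0.16 against -2.35 and -1.45 (1.22, SE 0.66, limma adjusted p = 1, 0.70 to 1.75 with an array left out), and in SM, at 0.60 and 0.64 against -0.82, 0.12 and -0.56 (1.04, SE 0.61, limma adjusted p = 0.996).

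At 5 h the single subunit with both DOX arrays above both untreated ones was Itgb2, the beta subunit of leukocyte integrins, at -0.10 and -1.96 with DOX against -2.82 and -1.98 (1.36, SE 0.81, limma adjusted p = 1). On the slide that held both conditions it was 0.02, the other arrays lay on separate slides, and without DOX replicate 1 it was 0.44. The most negative difference was that of Itga5, the main fibronectin receptor, at 0.69 and 1.46 against 2.24 and 1.84 (-0.97, SE 0.83, limma adjusted p = 1), -0.39 on the shared slide and -1.35 to -0.58 with an array left out. Itga4 was at -1.90 and -0.91 with DOX against -0.70 and -0.61 (-0.75, SE 0.54, limma adjusted p = 1), the difference ran from -1.25 to -0.26 with an array left out, and the mean of its 2 probes changed by 0.23. In later populations Itga4 was instead higher on every DOX array in HE1 (0.81), HE2 (1.31) and HP (0.46). Its arrays overlapped in d1 BC (-0.25) and SM (0.21). In HE1, Itgav, an alpha subunit of vitronectin receptors, was at 0.61 and 0.12 with DOX against 1.1 and 1.13 (-0.75, SE 0.56, limma adjusted p = 1). In HE2, Lamb1 was at 3.72 and 4.28 with DOX against 2.22 and 3.06 without (1.36, SE 0.65, limma adjusted p = 0.493).

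Leukocyte integrins were followed mainly in HE2 and HP, the untreated populations in which all 6 myeloid markers were well above background on every array. In HE2, Itgb2 was at -0.94 and -0.64 with DOX against 1.39 and 0.10 (-1.53, SE 0.81, limma adjusted p = 0.494), and Itgal at -1.83 and -1.90 against -0.92 and -1.47 (-0.67, SE 0.68, limma adjusted p = 0.639). With an array left out these ran from -2.18 to -0.89 and from -0.95 to -0.40. In HE1, Itgal was at -2.62 and -2.47 with DOX against -3.60 and -3.19 (0.85, SE 0.68, limma adjusted p = 1), with 1 untreated array well above background, and -0.07 after normexp background correction. In HP, Itgax was at -1.86 and -2.22 untreated and at -5.03 and -6.09 with DOX, where neither array was well above background. On this scale it was therefore at least 5.60-fold lower with DOX, with an adjusted p of 0.482 by limma, but the difference was -0.90 after normexp background correction. On the values the authors processed it was called by limma (-1.80, adjusted p = 0.0191), and the adjusted p ranged up to 1 among the alternatives. The 6 myeloid markers were at 2.51 to 2.94 in untreated HP and at 0.31 to 1.00 with DOX, and at 1.2 to 1.45 in HE2 against -0.63 to 0.34. Their part was not tested. Itga9, a VCAM1 and tenascin receptor, was at 0.29 and -0.32 with DOX in HP against -1.19 and -0.87, a 2.02-fold difference without overlap (SE 0.56 on the log2 scale, limma adjusted p = 0.997).

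Itgam (CD11b), read by the brightest of its probes, was at 2.21 to 6.62 on every array, including FLK1+ cells at 3.17 and 3.17. With DOX it was at 3.23 and 3.52 in SM against 4.09, 5.04 and 5.10 (-1.37, SE 0.77, limma adjusted p = 0.996), and at 5.77 and 4.10 in HP against 3.69 and 3.20 (1.49, SE 0.84, limma adjusted p = 0.997), which ran from 0.65 to 2.32 with an array left out. In HE1 it was at 5.44 and 4.53 with DOX against 5.51 and 6.13, lower by every array, as in d1 BC, at 3.37 and 3.23 against 3.81 and 3.51 (-0.36, SE 0.84, limma adjusted p = 1). At 5 h its groups overlapped. In HE2 its untreated arrays were 6.62 and 2.73, a wide gap, and without replicate 1 its difference of -1.25 became 0.69. The other 2 probes of Itgam did not show this pattern, with DOX differences of -0.47 and 0.32 in SM and of -0.04 and 0.65 in HP. Their mean signals over all arrays were -1.96 and -2.20, against 4.01 for the probe used, so its level depends on the probe. Itga2b was at 0.43 and 2.62 with DOX in HP against 3.25 and 3.01 (-1.60, SE 1.1, limma adjusted p = 0.997), and the difference ran from -2.69 to -0.51 with an array left out. In HE2 it was at 3.84 and 0.06 with DOX against 2.64 and 3.77, so the groups overlapped. In SM it was at -1.32 and -3.26 against -1.13, -1.10 and -1.08, and at 5 h, in d1 BC and in HE1 the groups overlapped. The 6 megakaryocyte markers were at 0.78 to 1.05 in untreated HP and 1.5 to 1.82 with DOX.

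No DOX effect on a subunit was shown to differ between populations. The F-test over the 6 effects called none of 32 (0% of all genes), with 1 at an unadjusted p under 0.05 (2.09%). Of 467 differences tested in 15 pairs of populations, none was called (0% of all genes in each pair), 15 had an unadjusted p under 0.05 and the lowest adjusted p was 0.337. None of the 3 lists of matrix partners, adaptors and ligands of leukocyte integrins had a called gene in any DOX comparison. Itgb1bp1 and Itgb3bp were well above background in every group and were not called anywhere, and Itgb1bp2 was so on 11 of 27 arrays and was not tested.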

How the data were processed

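RNA from 27 samples was hybridised to one-colour Agilent mouse arrays, 1 array a sample. The deposited intensity values are gProcessedSignal, which the authors obtained with Agilent Feature Extraction 10.7.1.1 after its background correction. The deposited table of log2 values was normalised by the authors with limma and was used only as an alternative. The genes were chosen, and the lists of partners and markers set, with earlier results of these data known, and 1 further symbol that met the rule is not reported here.

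Here each array's log2 signal was centred on its 75th percentile, control spots and outlier flags were left out, and spots of a probe were averaged. Genes were matched by the RefSeq accession of the probe and represented by the probe with the highest mean. limma 3.58.1 in R 4.3.3 fitted 13 group means to the 28296 genes that were well above background throughout 1 group or more. A gene was tested in a comparison if this held in 1 of its groups. P-values were Benjamini-Hochberg adjusted over all genes tested, and a call needed an adjusted p under 0.05 and a 2-fold change. The steps between untreated populations share arrays. The script was tested on simulated data. The text names genes by 3 rules: in each step up to 3 called genes in either direction, by size of change, for DOX up to 2 in either direction among genes whose arrays did not overlap, and Itga11, Itga2b and Itgam throughout; other called genes, and values given for contrast, were chosen after their values were seen. Array number and signal over background limit the precision. Arrays with the same replicate number often lay on the same slide, and their deviations from group means correlated at 0.27 to 0.64 in 5 of the 6 DOX comparisons, at -0.11 for DOX at 5 h and at -0.39 to 0.5 over the untreated steps. With 2 pairs in most comparisons and no label for a shared batch, the number was not taken as a pairing, and the fit with it as a block is an alternative.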

Additional observations from a re-analysis of the deposited data

How the results depend on the processing

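Values are numbers of genes called among the 38, unless a log2 difference is named, and the cause of a change was not tested. Over 13 alternative settings and 27 arrays left out in turn, 291 of the recomputed counts stayed within 1.5 times the value given and 38 did not. From FLK1+ cells to 5 h the count was 5 with array weights or with only the groups compared, and 0 to 3 with an array left out. From 5 h to d1 BC it was 0 with the slide as a fixed block and 0 to 0 with an array left out. From d1 BC to SM it was 1 with array weights (Itga8). From d1 BC to HE1 it was 7 with array weights, 4 with the authors' values, 2 with median scaling, normexp, quantile normalization or the slide as a random block, 0 with the slide as a fixed block and 0 to 1 with an array left out. Between SM and HE1 it was 4 with the slide as a random block, 3 with array weights or the authors' values, 2 with the slide as a fixed block, 1 with normexp or quantile normalization, and 0 to 1 with an array left out (Itgb5 without HE1 replicate 1 or SM replicate 2). From HE1 to HE2 it was 13 with the slide as a fixed or random block, 11 with the authors' values, 10 with quantile normalization, 3 with array weights or median scaling, 0 with only the groups compared, and 0 to 4 with an array left out. From HE2 to HP it was 1 with the authors' values or quantile normalization, and with DOX it was 1 in HP with the authors' values (Itgax each time). Directions turned only for differences that were not called. Itga11 became 0.457, 0.414 and 0.614 in HE2 with the authors' values, median scaling and quantile normalization and ran from -0.209 to 0.115 with an array left out. It became 0.195 in HP with normexp and ran from -1.783 to 0.483 with an array left out, and from -1.351 to 0.194 in HE1. Itga2b became 0.024, 0.463 and 0.168 at 5 h with normexp and the slide as a fixed or random block and 0.07 in d1 BC with normexp. With an array left out it ran from -0.745 to 0.44 at 5 h, -1.119 to 0.87 in d1 BC, -1.92 to 0.84 in HE1 and -3.146 to 0.631 in HE2. Itgam became -0.025 and -0.073 at 5 h with median scaling and the slide as a fixed block, 0.207 in d1 BC and 0.105 for the mean effect with the mean of all probes. With an array left out it ran from -3.194 to 0.691 in HE2 and from -0.611 to 0.037 for the mean effect. Itgal in HE1 became -0.073 with normexp, and Itga4 at 5 h 0.225 with the mean of all probes. Median scaling moved the median of all genes by -0.73 from d1 BC to HE1 and by -0.64 for DOX at 5 h.

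With the replicate number as a block (pairing by number), the count from HE1 to HE2 was again 6, with Itga7 called and Itga1 not, that of the F-test was 15, that of each DOX comparison was 0, and no count moved by more than 1.5 times. For DOX at 5 h the numbers correlated at -0.11, and the crossed pairing, added after the data were seen, gave 0 calls.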
